A study of Mus musculus with 12 samples.

Results

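Livers of mice whose hepatocytes lack YAP were compared with those of controls 1 day after a single dose of the hepatocyte mitogen TCPOBOP, on 2 oligonucleotide arrays, 1 of pooled RNA from each genotype. These 2 arrays were chosen by their labels, genotype and day, out of the 12 arrays of the series. Of 18193 genes with a probe set of their own, 14102 passed a filter on dim signal and were described. All animals were female YAPfl/fl mice, 8 to 12 weeks old at injection. KO mice had received the virus AAV8.TBG.PI.Cre.rBG, in which the TBG promoter limits Cre to hepatocytes, so that other liver cells keep Yap1. WT controls carried the same floxed alleles and had received AAV8.TBG.PI.eGFP.WPRE.bGH8 at the same dose. Both groups were given TCPOBOP in corn oil (3 mg/kg by gavage) 10 days after the virus and were killed on day 1. The other arrays are 2 per genotype at day 0, from mice that had received virus and no TCPOBOP, and 3 per genotype at day 2. No source used here says how many livers went into a pool, and the labels do not tie replicate arrays to named animals, so p-values measure the spread between arrays, which may be partly technical.

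YAP is the transcriptional co-activator held in check by the Hippo kinases, and with TEAD factors it drives genes of growth and of the cell cycle. TCPOBOP activates the nuclear receptor CAR, which induces drug-metabolizing enzymes and sends resting hepatocytes into division without prior tissue loss. A hepatocyte that leaves rest first makes D cyclins, then the DNA replication machinery, and last the kinases, kinetochore and condensin proteins of mitosis, so the 3 gene groups stand for successive steps of the cycle.

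Genes of mitosis read lower in the KO pool than in the WT pool, among them Cdc20, the activator of the anaphase-promoting complex (2691.4 units in WT and 655.7 in KO), Ccnb2, a mitotic cyclin (1031.1 and 318.3), and Top2a, the topoisomerase that untangles chromosomes (1755.7 and 550.3). Genes of DNA replication leaned the same way with smaller differences. The D cyclin Ccnd1 and the transcription factor Myc, which act at the entry into the cycle, lay close together in the pools. Ccnd1 read 8055.8 and 8235.0 units by its brightest probe set. Other regulators of that entry went both ways, with the E cyclins lower in the KO pool. The CAR target genes Cyp2b10, Cyp2c55 and Cyp3a11, the classic drug-metabolizing cytochromes of this response, differed by at most 0.10 on the log2 scale. Serum amyloid genes, the insulin-regulated genes Irs2 and Igfbp1 and a few markers of cells other than hepatocytes differed too, with their values given below.

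With 1 array per genotype the difference has no replicate check, and no p-value is given for it. All differences are KO pool minus WT pool of log2(signal + 16), where the signal is the deposited MAS5 intensity in arbitrary units, and folds are on this scale, which understates the change of dim genes. The spread between replicate arrays at day 0 and day 2 served as the yardstick. A gene is called past the yardstick when the pools differed at least 2-fold and by more than any 2 replicate arrays of the same genotype and day did, over 8 such pairs. Neither a fold nor a log2 difference of the pools is given for a gene where a pool lay under 64 units. In whole liver, fewer cells of a type and less RNA per cell cannot be told apart.

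Over all genes the distance between the pools lay within the range of replicate pairs. A pool averages over livers, so replicate arrays are not a strict match for it. They differed at least 2-fold in 9.18% of genes (1295 of 14102), against 5.45% to 10.7% for the 8 pairs of replicate arrays, 8.26% to 10.3% for a KO and a WT array of day 0 and 11.2% to 15.1% for a KO and a WT array of day 2. The signal ranges of the pools were alike, with medians of 248.0 units in WT and 239.0 in KO, highest signals of 84392.4 and 83519.9, and means of 29579 and 31357 for the spiked control transcript cre. At day 2 the highest signals were 103216 to 116918 in WT and 48217 to 67457 in KO. The median difference between the pools was -0.01 over all genes and lay between -0.06 and 0.04 in each of 7 ranges of mean signal.

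**Figure D1:**
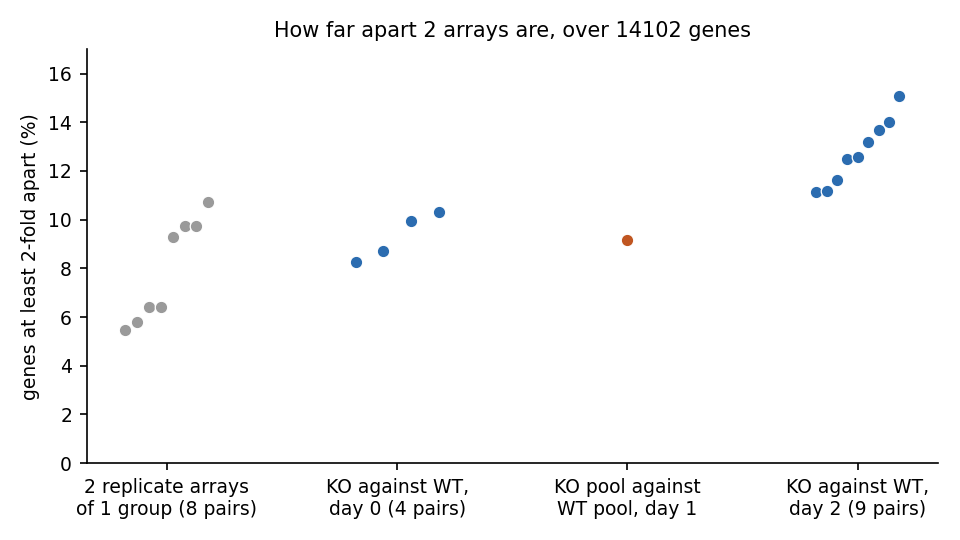
Share of 14102 genes (in percent) that lay at least 2-fold apart between 2 arrays, on the scale log2(signal + 16); each point is a pair of arrays, sorted within a column. The pools of day 1 (9.18%) lie inside the range of the replicate pairs (5.45% to 10.7%) and below the 9 pairs of KO and WT arrays at day 2 (11.2% to 15.1%).

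Past the yardstick lay 709 genes (5.03%), of which 299 read higher in the KO pool (2.12%) and 410 lower (2.91%). Most of them were dim: 577 had a mean log2 signal of 9 or less, and 5 of the 1791 genes with a mean over 11 were past it. In 298 of the 410 lower genes the KO pool lay below all 10 replicated arrays, and in 82 the WT pool lay above all of them. Of the 299 higher genes, the WT pool lay below all 10 replicated arrays in 227. In most of these genes, then, the pools were set apart by 1 array that read lower than every replicated array of the series.

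**Figure D2:**
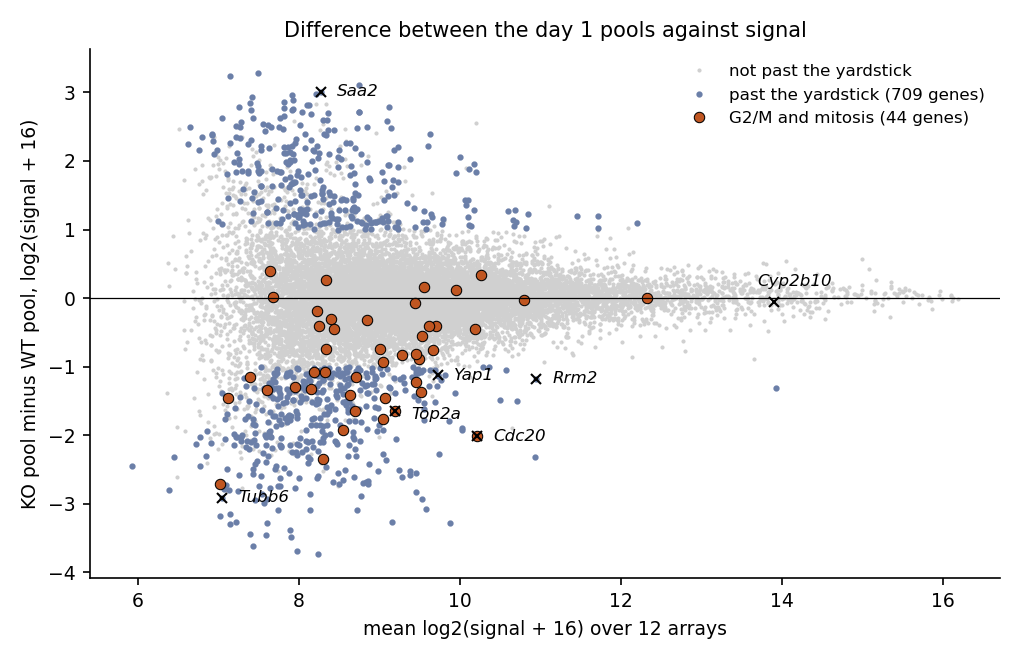
Difference between the pools (KO minus WT, log2) against the mean log2 signal over the 12 arrays; each point is a gene, blue points are the 709 genes past the yardstick, orange points the 44 measured genes of G2/M and mitosis, and crosses mark genes named beside them. The spread of the grey points narrows from left to right, Cyp2b10 sits near 0, and 37 of the 44 orange points lie below 0.

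The arrays of day 2 and day 0, which do not enter the difference at day 1, allow a test. By limma on log2(signal + 16), with Benjamini-Hochberg adjustment over all genes, 1300 genes (9.22%) differed at day 2 at an adjusted p under 0.05, 563 (3.99%) higher and 737 (5.23%) lower in KO, and 24 (0.17%) at day 0, 9 (0.0638%) higher and 15 (0.106%) lower. Centring each array on its median turned the counts of day 2 into 233 higher and 1366 lower, as the median difference of all genes went from 0.09 to -0.08. Of the 410 genes lower at day 1, 25 were called lower and 18 higher at day 2, which is 6.10% and 4.39% of them, beside 5.23% and 3.99% of all genes. Of the 299 higher genes, 11 were called higher (3.68%) and 5 lower (1.67%). For genes with a mean log2 signal over 9, 9 of the 69 lower at day 1 were lower at day 2, or 13.0%, beside 8.02% of all such genes, and 7 of the 63 higher at day 1 were higher, or 11.1%, beside 4.75%. The yardstick uses the spread of the same arrays of day 2, so it favours genes that vary little there. With the replicates of day 0 alone as yardstick, 26 of 594 lower genes were called lower at day 2 (4.38%), and with 2-fold alone 29 of 720 (4.03%), neither above the 5.23% of all genes. Across all genes the difference at day 1 and that at day 2 had a Pearson correlation of -0.02.

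Yap1, the deleted gene, read 1233.9 and 1292.9 units in WT and 631.5 and 595.7 in KO at day 0, 999.2 in the WT pool and 449.6 in the KO pool, and 1059.6 to 1306.3 in WT and 539.0 to 796.7 in KO at day 2. Every KO array lay below every WT array, and the KO pool was the lowest of the 12. The pools differed 2.18-fold (-1.12) where replicates differed by at most 0.55. A second, dim probe set read 23.1 units in WT and 57.8 in KO, too low for a fold. Whether either lies in the floxed part is not known here. KO was lower at day 2 by 0.92 ± 0.17 (SE, adjusted p = 0.00844 by limma).

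Among the other 18 measured Hippo pathway genes none was past the yardstick, where 5.03% of all genes were. Wwc1, which encodes the Hippo activator KIBRA, read 1319.7 units in WT and 674.5 in KO (-0.95), with the WT pool above and the KO pool below all 10 replicated arrays. Lats2, a Hippo kinase gene that YAP itself induces, read 400.6 and 182.2 (-1.07), within the largest replicate difference of 1.73. Wwtr1, which encodes the YAP paralogue TAZ, read 603.0 and 712.7, and it and Wwc1 were picked after their values were seen.

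Of 24 measured YAP/TAZ target genes, Ccn1 was past the yardstick in the lower direction and Ereg in the higher. Of all genes, 2.91% were past it in the lower direction and 2.12% in the higher. The lowest difference of the list, -2.34, was that of Birc5 (1361.2 and 256.0 units), a gene also on the G2/M list. It was not past the yardstick. Ccn1, a secreted matrix protein and a standard YAP target, read 504.2 units in WT and 158.1 in KO (-1.58, 2.99-fold), and the KO pool lay below all other arrays, which ran from 232.2 to 683.5. Of its 3 other probe sets, 2 gave -0.91 and -0.28, and a dim one read 54.8 units in WT and 257.1 in KO. Ccn2, the closest relative of Ccn1, read 455.4 and 339.6 (-0.41). Ereg, the EGF receptor ligand epiregulin, read 115.2 and 306.1 (1.30), and here the WT pool was the lowest of the 12 arrays. Ankrd1, Axl and Amotl2, other standard targets, differed by -0.35, -0.29 and -0.41, each within its replicate spread, and were picked after their values were seen. The list had a median of -0.27, or -0.00 when probe sets were averaged, so it has no settled direction at day 1.

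The list of G2/M and mitosis held 47 genes, of which 44 were measured and Bub1, Bub1b and Melk fell to the filter. The KO pool lay below the WT pool in 37 of 44 (84.1%, beside 50.8% of all genes), the median difference was -0.82, and 12 were past the yardstick, all lower, where 2.91% of all genes were. The median signal of these genes was 825.9 units in the WT pool and 409.6 in the KO pool. A further 7 lay at least 2-fold lower without passing the replicate spread, among them Birc5 and Mki67, and none lay 2-fold higher. The count of 12 became 19 with 2-fold alone or with 1.5-fold, and 6 with 3-fold.

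At day 0, before TCPOBOP, these genes had a median difference of -0.04, and limma called none of them, beside 0.17% of all genes, with 5 higher and 5 lower at an unadjusted p under 0.05. At day 1 the WT pool lay above all 4 arrays of day 0 in 33 of the 44 genes and the KO pool in 22, beside 23.1% and 23.2% of all genes. The KO pool was thus above the level of day 0 in 50.0% of the list and the WT pool in 75.0%.

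**Figure D3:**
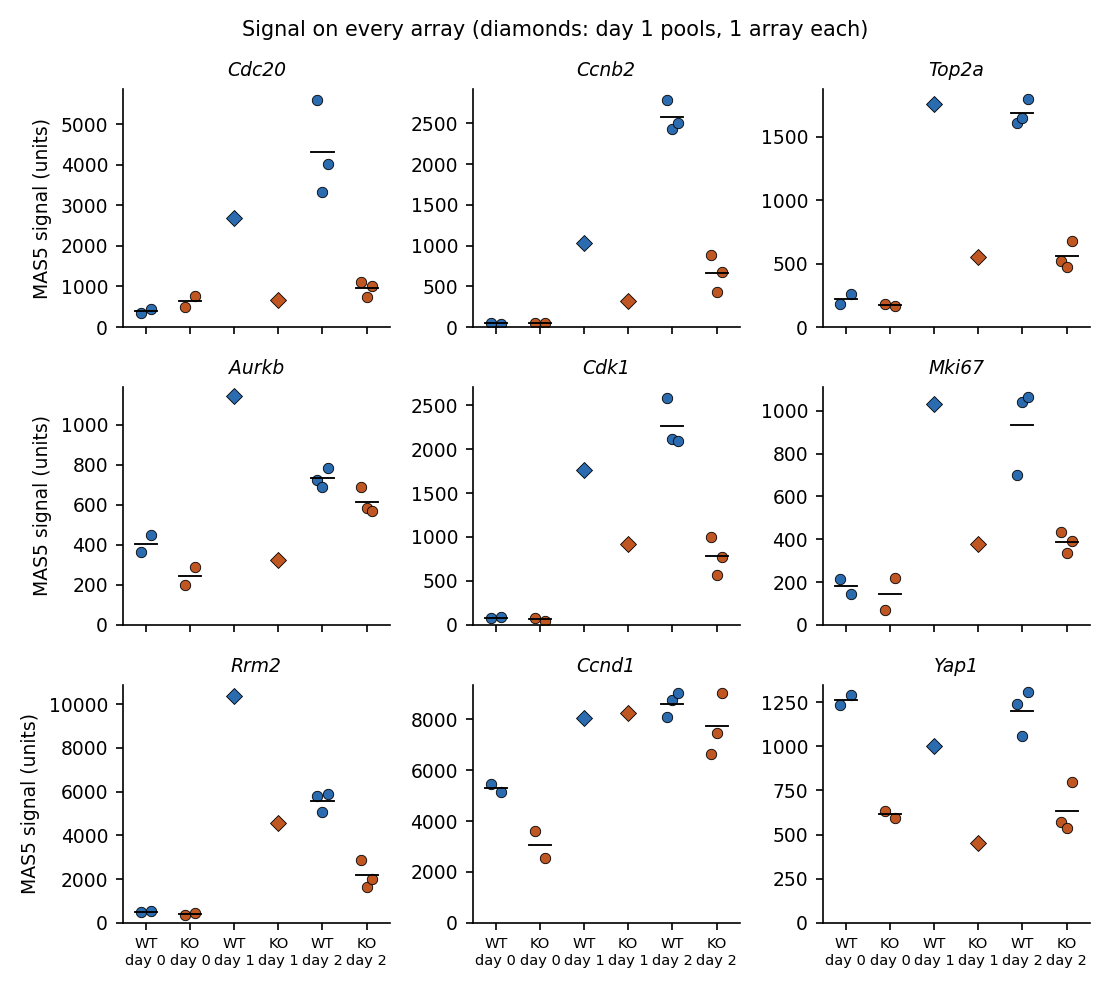
MAS5 signal in units of 9 genes on all 12 arrays; circles are replicate arrays with their mean as a line, diamonds the single pools of day 1, blue WT and orange KO. For Cdc20, Ccnb2, Top2a, Cdk1, Mki67 and Rrm2 both genotypes start low at day 0 and the WT diamond lies above the KO diamond, while the Ccnd1 diamonds lie side by side at 8055.8 and 8235.0 units.

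Cdc20 read 342.7 and 449.1 units in WT and 499.1 and 770.5 in KO at day 0, 2691.4 in the WT pool and 655.7 in the KO pool at day 1, and 5601.7, 3331.4 and 4014.7 in WT and 1102.8, 741.6 and 1013.0 in KO at day 2. The KO pool stayed inside the range of the KO arrays of day 0, whereas the WT pool lay between the WT arrays of day 0 and day 2. The difference at day 1 was -2.01 (4.03-fold, largest replicate difference 0.75), and a second probe set gave -2.33. At day 2 it was -2.15 ± 0.23 (adjusted p = 0.00102 by limma).

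Ccnb2 was at 40.7 to 50.7 units on all 4 arrays of day 0. At day 1 it read 1031.1 in WT and 318.3 in KO (-1.65, 3.13-fold), and at day 2 it read 2784.7, 2436.0 and 2510.0 in WT and 879.8, 431.1 and 676.0 in KO. Both pools lay above day 0 and below their own genotype's range at day 2, with WT ahead of KO at both times. The difference at day 2 was -1.99 ± 0.26 (adjusted p = 0.00233 by limma).

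Top2a ran from 163.4 to 258.0 units at day 0, read 1755.7 and 550.3 in the pools (-1.65, 3.13-fold), and at day 2 read 1605.3, 1648.0 and 1793.3 in WT and 520.2, 470.6 and 677.1 in KO. Each pool already lay inside the range that its genotype showed at day 2. A second probe set read 199.5 units in WT and 14.1 in KO, too dim for a fold. At day 2 the difference was -1.58 ± 0.19 (adjusted p = 0.00181 by limma).

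Cdk1, the kinase that starts mitosis, was at 47.0 to 86.4 units at day 0 and read 1765.7 in the WT pool and 920.2 in the KO pool (-0.93), just under the 2-fold that the yardstick asks for. At day 2 it read 2087.6 to 2580.7 in WT and 562.4 to 1003.8 in KO (-1.55 ± 0.24, adjusted p = 0.00454 by limma). Mki67, the proliferation marker Ki-67, read 1031.6 and 376.6 in the pools, and its difference of -1.42 fell just short of the largest replicate difference, 1.42 at this rounding. KO was called lower at day 2 (-1.22, adjusted p = 0.0458 by limma), a call that ended on leaving out any of the 6 arrays of day 2, with adjusted p up to 0.139. Foxm1, the transcription factor of the mitotic programme, read 1378.3 and 1290.9 (-0.09), and a dimmer probe set 677.3 and 307.3 (-1.10).

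By role, which was assigned after the values were seen, all 6 genes of condensin and chromosome structure lay at least 2-fold lower, from -1.65 for Top2a to -1.22 for Smc4, a condensin subunit (1559.5 and 659.7 units). All 7 kinetochore and checkpoint genes were below the WT pool, with a median of -1.08. They include Ndc80, the microtubule-binding kinetochore protein (292.9 and 31.4 units), Mad2l1, a checkpoint protein (1314.6 and 584.1), and the kinetochore motor Cenpe (628.4 and 289.2). Of the chromosomal passenger complex, the kinase Aurkb read 1143.0 and 325.4 (-1.76, 3.39-fold, past the yardstick), the survivin gene Birc5 1361.2 and 256.0, and Cdca8 943.1 and 525.1, with -2.06 from its second probe set. The scaffold Incenp read 764.0 and 726.4 (-0.07), and its other probe sets gave -0.70 and -1.23.

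The genes of anaphase, spindle and cytokinesis were more mixed, as were the mitotic cyclins, kinases and phosphatases. Of these cyclins, kinases and phosphatases 6 of 10 were below the WT pool, with a median of -0.32 and a range from -1.65 to 0.26. Of the spindle, kinesin and cytokinesis genes 11 of 13 were below it, with a median of -0.45 and a highest difference of 0.39. Nusap1, a spindle protein, read 676.8 and 166.9 (-1.92), with 0.24 from its other probe set, and Racgap1, a cytokinesis regulator, 843.5 and 296.0 (-1.46). The securin gene Pttg1 read 3748.2 and 3750.4, and the spindle assembly factor Tpx2 1385.1 and 1353.7, with both pools below all 10 replicated arrays for each. The probe sets of these genes disagreed: 3 others of Tpx2 gave -1.17, -0.76 and 0.03, and 2 others of Pttg1 gave -0.15 and, from 86.9 and 358.3 units, 1.86. Ccna2, the cyclin of S and G2 phase, read 870.3 and 947.8 (0.12), and its second probe set gave -0.61. The other genes past the yardstick were Pbk, a mitotic kinase (1516.2 and 578.2), and Ncapd2, a condensin subunit (650.5 and 249.6). Racgap1, Pbk, Ncapd2, Smc4, Mad2l1, Cenpe and the genes named here without being past the yardstick, other than Mki67, Cdk1, Foxm1 and Ccna2, were picked after their values were seen. Of the 12 genes past the yardstick, 6 had further probe sets, 7 in all, and 6 of these 7 were lower in the KO pool.

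At day 2 limma called 18 of the 44 genes lower, beside 5.23% of all genes, and none higher (5 at an unadjusted p under 0.05), with a median of -0.93, and the count of lower genes ran from 13 to 21 over the alternatives tried. Of the 12 genes past the yardstick at day 1, 8 were called lower at day 2, namely Cdc20, Ccnb2, Top2a, Racgap1, Pbk, Ncapd2, Smc4 and Mad2l1. Chosen without the spread of the day 2 arrays, it was 9 of 15 genes with the replicates of day 0 as yardstick and 11 of 19 with 2-fold alone, both added after seeing the data. Across the 44 genes the differences at day 1 and day 2 had a Pearson correlation of 0.54, as a description of genes that are not independent of each other. The rest, Ndc80 (adjusted p = 0.264 by limma), Nusap1 (adjusted p = 0.317 by limma), Cenpe and Aurkb, were not called. Aurkb read 362.8 and 450.5 units in WT and 199.1 and 291.4 in KO at day 0. At day 2 its KO arrays read 570.2 to 691.0 units beside 688.7 to 784.7 in WT (-0.25, adjusted p = 0.421 by limma). Ccnf, an F-box cyclin picked after its values were seen, did the reverse, with 376.0 and 381.3 units in the pools but 390.5 to 420.6 in WT and 49.6 to 92.6 in KO at day 2 (-2.38, adjusted p = 0.00566 by limma).

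**Figure D4:**
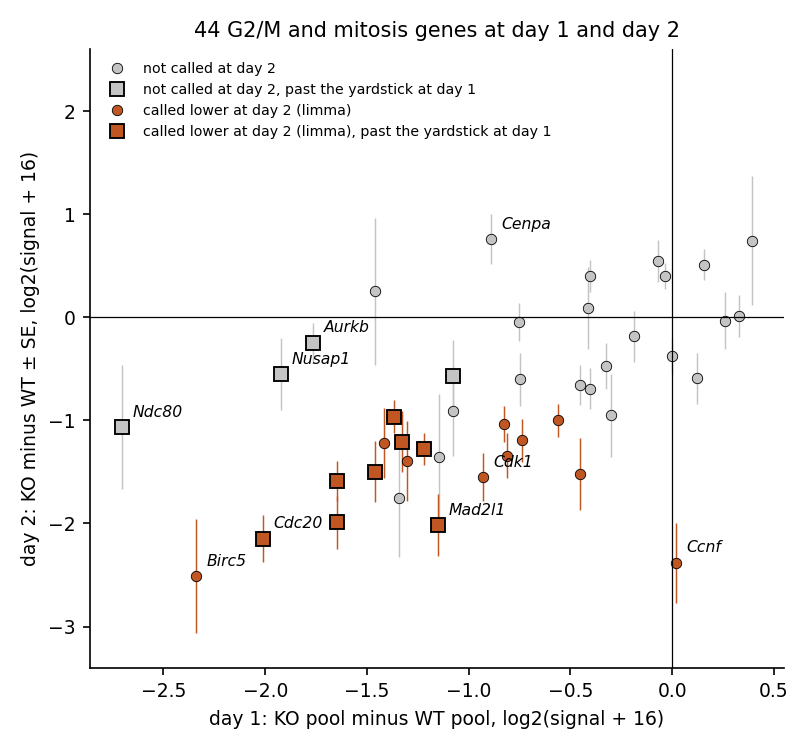
Difference between KO and WT of 44 G2/M and mitosis genes at day 1 (pools, x axis, no error available) and at day 2 (limma estimate from 3 arrays per genotype, y axis, bars are SE), both on the scale log2(signal + 16). Squares are the 12 genes past the yardstick at day 1 and orange marks the 18 genes called lower at day 2; Ndc80, Nusap1 and Aurkb lie far to the left without a call at day 2.

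The promoters of the mitotic genes carry known sequence elements, and those of the 3 genes with the clearest values are shown because they differ together at both days. The CCAAT box is the site of the factor NF-Y, and the CHR element (TTTGAA) the site through which the MuvB complexes repress these genes at rest and activate them in G2. The 250 bases before the start of each gene are from RefSeq (build GRCm38.p6), 5′ to 3′ on the gene's strand, and the CCAAT (or ATTGG) and TTTGAA (or TTCAAA) matches are in capitals. They lie at chr4:118437344-118437593 for Cdc20, chr9:70421555-70421804 for Ccnb2 and chr11:99024190-99024439 for Top2a, all on the minus strand.
Cdc20: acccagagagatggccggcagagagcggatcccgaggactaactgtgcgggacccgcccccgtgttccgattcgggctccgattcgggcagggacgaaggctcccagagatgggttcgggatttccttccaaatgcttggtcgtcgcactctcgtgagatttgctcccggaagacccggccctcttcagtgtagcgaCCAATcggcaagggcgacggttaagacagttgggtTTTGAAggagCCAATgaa
Ccnb2: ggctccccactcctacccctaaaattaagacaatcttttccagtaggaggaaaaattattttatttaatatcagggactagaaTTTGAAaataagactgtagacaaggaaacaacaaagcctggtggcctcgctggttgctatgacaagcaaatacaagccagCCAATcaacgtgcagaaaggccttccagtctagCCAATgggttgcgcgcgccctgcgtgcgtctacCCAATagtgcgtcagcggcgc
Top2a: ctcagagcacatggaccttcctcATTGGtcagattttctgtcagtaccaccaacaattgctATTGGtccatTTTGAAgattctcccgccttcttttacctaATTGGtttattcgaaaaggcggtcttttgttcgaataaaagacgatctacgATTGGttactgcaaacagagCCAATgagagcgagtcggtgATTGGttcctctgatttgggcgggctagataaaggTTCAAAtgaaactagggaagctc
Cdc20 has 2 CCAAT matches and 1 TTTGAA match, Ccnb2 3 and 1, and Top2a 6 and 2. The CCAAT matches of Ccnb2 begin 87, 54 and 21 bases before the start, so each begins 33 bases from the next.

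Of the 44 measured genes of the list, 36 had a promoter in the RefSeq table, and 28 of these (77.8%) held CCAAT on either strand within 250 bases, beside 34.5% of all 27025 promoters and 35.4% of those of the genes kept. At least 2 CCAAT matches were found in 44.4% of the list, 10.5% of all promoters and 12.9% of the genes kept. TTTGAA on either strand was found in 15 of 36 (41.7%), in 16.3% of all promoters and in 11.4% of the genes kept. GGAATG, a motif of the TEAD factors that carry YAP to DNA, was found in 4 of 36 (11.1%), beside 12.6% of all promoters. Of the 9 genes past the yardstick with a promoter in the table, 6 held CCAAT, 4 TTTGAA and 2 GGAATG. A match shows these letters in the window and says nothing of binding.

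DNA replication genes, of which 34 of 40 were measured, were below the WT pool in 28 (82.4%, beside 50.8% of all genes), with a median of -0.36, and 2 were past the yardstick, both lower, where 2.91% of all genes were. At day 0 the list had a median of -0.19, with 4 genes lower and 1 higher at an unadjusted p under 0.05 by limma. After adjustment limma called 2 of its genes lower there, beside 0.106% of all genes. These were the helicase gene Mcm4 (901.8 and 917.8 units in WT, 195.9 and 311.0 in KO, adjusted p = 0.0330) and the thymidine kinase gene Tk1 (741.4 and 850.0, 353.2 and 228.0, adjusted p = 0.0374). Each limma call ended without WT day 0 replicate 1 or 2, that of Mcm4 also without KO day 0 replicate 1 and that of Tk1 without KO day 0 replicate 2, with adjusted p up to 0.183 and 0.253. With probe sets averaged, Mcm4 differed by -0.81 at day 0 (adjusted p = 0.474 by limma). In a limma fit of the day 0 arrays alone the adjusted p was 0.44 for Mcm4 and 0.64 for Tk1. In the pools Mcm4 differed by -0.40 and Tk1 by -0.53. Rrm2, the subunit of ribonucleotide reductase that limits nucleotide supply in S phase, read 472.7 and 536.4 units in WT and 343.2 and 436.1 in KO at day 0. It read 10394.2 in the WT pool and 4585.6 in the KO pool (-1.18, 2.26-fold), each the highest reading of its genotype. At day 2 it read 5076.0 to 5895.0 in WT and 1642.6 to 2854.4 in KO (-1.39 ± 0.18, adjusted p = 0.00243 by limma).

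Fen1, the flap endonuclease of lagging strand synthesis, read 2794.6 in WT and 464.2 in KO (-2.55). This probe set varied by up to 2.12 between replicates (409.2, 1831.0 and 418.9 units in KO at day 2), and another gave -0.82. The replication clamp gene Pcna read 8467.5 and 6331.2 (-0.42), and the helicase gene Mcm7 3891.3 and 2673.7 (-0.54), with -1.13 to 0.18 from its 3 other probe sets. Mcm5 of the same helicase read 1309.3 and 1220.0 (-0.10), and -0.50 by its second probe set. The large reductase subunit Rrm1 read 1185.1 and 1143.4 (-0.05), and its second probe set 1395.7 and 617.5 (-1.16). Pcna, Mcm7, Mcm5 and Rrm1 were picked after their values were seen.

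The KO pool lay above all 4 arrays of day 0 in 23 of 34 genes and the WT pool in 28 (67.6% and 82.4%, beside 23.2% and 23.1% of all genes). At day 2 limma called 7 of the 34 lower, beside 5.23% of all genes, and none higher (2 at an unadjusted p under 0.05), a count that became 4 without KO day 2 replicate 2, 12 with arrays centred on their median and 13 with probe sets averaged.

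G1/S regulators, all 25 measured, had a median of 0.03, or -0.14 when probe sets were averaged, and 11 were below the WT pool. Ccnd1 was 5154.0 and 5446.3 units in WT and 2545.7 and 3602.8 in KO at day 0, and the pools read 8055.8 and 8235.0 (0.03). Its other probe sets gave 0.02 and, from 942.5 and 639.5 units, -0.55. Ccnd3, another D cyclin, picked after its values were seen, read 1676.4 and 2014.8, above all 10 replicated arrays in both pools. Myc read 662.9 and 807.7 (0.28), after 72.2 to 302.8 units at day 0. The E cyclins, E2f1 and E2f2 read lower in the KO pool. Ccne2 read 453.7 and 196.1 (-1.15), Ccne1 554.9 and 309.1 (-0.81), E2f1 531.2 and 283.5 (-0.87) and E2f2 739.1 and 431.8 (-0.75). Mycn, Ccnd2 and Skp2 read higher, at 116.0 and 346.4 (1.46), 1008.4 and 1475.8 (0.54) and 639.9 and 929.1 (0.53). Other probe sets of Ccnd2 gave -1.20 to 0.26, and that of Skp2 -1.03. Apart from Mycn, these genes were picked after their values were seen. The member past the yardstick, in the lower direction like 2.91% of all genes, was E2f8, a repressor of E2F targets, at 925.6 and 254.1 (-1.80). In WT it was 88.4 and 100.3 at day 0, but in KO 409.4 and 428.3 (called higher by limma, adjusted p = 0.0330, a call that ended without WT day 0 replicate 1 or 2 or KO day 0 replicate 2, with adjusted p up to 0.159).

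Of 25 cell cycle inhibitors and p53 targets, 19 were below the WT pool (76.0%, beside 50.8% of all genes), with a median of -0.30. Cdkn1c, the inhibitor p57, was past the yardstick in the lower direction, as were 2.91% of all genes. It read 178.4 units in WT and 52.8 in KO, under the floor for a fold. Cdkn1a, the inhibitor p21, read 748.3 and 635.9 (-0.23).

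CAR targets and phase I enzymes, of which 29 of 35 were measured, had a median of 0.06. The KO pool was below the WT pool in 9 (31.0%, beside 50.8% of all genes). Cyp2b10, the hallmark CAR target, was at 1582.7 to 1866.6 units on the 4 arrays of day 0 and read 50354.6 in the WT pool and 48492.4 in the KO pool (-0.05, largest replicate difference 0.17). Cyp2c55 was at 446.2 to 699.2 units at day 0 and read 30796.8 and 32900.9 (0.10). Both genes thus gave nearly the same reading in the pools, far above day 0. The 3 probe sets of Cyp2b10 read 49082.8 to 50962.3 units in WT and 48492.4 to 49957.0 in KO. Cyp3a11 read 74549.9 and 72610.2 (-0.04), where the highest signals of the pools were 84392.4 and 83519.9. Whether readings this high still resolve a difference was not tested. The receptor itself, Nr1i3, read 2317.7 and 2661.7 (0.20).

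At day 2 limma called Cyp2b10 (-0.42, adjusted p = 0.0263) and Cyp3a11 (-0.82, adjusted p = 0.00418) lower in KO. After quantile normalization, which sets the arrays to the same range, the differences were 0.11 (adjusted p = 0.472) and 0.07 (adjusted p = 0.592). The call of Cyp2b10 also ended without any of WT day 2 replicates 1 and 3 and KO day 2 replicates 1 and 2, with adjusted p up to 0.108.

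Of the 29 genes 1 was past the yardstick in the lower direction and 1 in the higher, beside 2.91% and 2.12% of all genes. These were Cyp3a44 and Cyp2d9, both from families of near-identical genes whose probes may read more than 1 member. Cyp3a44, a cytochrome higher in female liver, read 381.5 and 410.7 units in WT and 79.7 and 130.4 in KO at day 0, then 4574.8 and 1876.8 in the pools (-1.28). The WT pool was its highest reading, and every KO array at day 2 (751.7 to 1101.3) lay below every WT array (1438.3 to 3221.6). The limma call at day 2 (-1.27, adjusted p = 0.0167) ended without WT day 2 replicate 3, KO day 2 replicate 2 or KO day 2 replicate 3, with adjusted p up to 0.0698. Cyp2d9, a cytochrome higher in male liver, read 845.5 and 2066.6 (1.27), and both values lie inside the range of the replicated arrays (686.6 to 2350.7). At day 0 it read 686.6 and 941.5 in WT and 2210.8 and 1670.5 in KO (1.24, adjusted p = 0.0941 by limma, not called). At day 2 the genotypes overlapped (-0.15, adjusted p = 0.668 by limma).

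No gene of phase II conjugation and transport (28 measured), of the NRF2 antioxidant response (17), of hepatocyte identity (20), of periportal metabolism (22), of gluconeogenesis (17), of cholesterol synthesis (19), of fatty acid oxidation (26) or of the unfolded protein response (26) was past the yardstick. Their medians lay between -0.06 and 0.15. Of all genes 5.03% were past it, but 1.64% of those with a mean log2 signal over 9 and 0.28% of those over 11. That none passed therefore says little about bright genes. Of the phase II genes Sult1b1, a sulfotransferase, was furthest apart, at 392.8 and 198.6 units (-0.93), with the KO pool the lowest of 12 arrays.

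Tubb6, a beta tubulin, read 15.9 to 27.1 units on the 4 arrays of day 0, 751.0 in the WT pool and 85.9 in the KO pool (-2.91, 7.53-fold, largest replicate difference 0.43), and at day 2 it read 973.6 to 1182.3 in WT and 33.9 to 40.6 in KO. The WT readings of day 1 and day 2 thus stand far above all KO readings, of which the pool was the highest. At day 2 the difference was -4.38 ± 0.48 (adjusted p = 0.00112 by limma). Stmn1, which destabilizes microtubules, read 3444.6 and 1803.8 (-0.93). The list of 16 tubulins and cytoskeletal genes as a whole had a median of 0.06 at day 1. None of the rest was past the yardstick, where 5.03% of all genes were.

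Acute phase genes differed through the serum amyloids. Saa2 read 117.0 units in WT and 1054.1 in KO (3.01, 8.05-fold), and Saa1, its near-identical neighbour, 697.8 and 4183.5 (2.56), by both of its probe sets. At day 2 the order was the opposite, with every KO array below every WT array for both genes and no call in limma (adjusted p = 0.12 for each). WT day 2 replicate 2 read 1107.9 for Saa2 and 7678.0 for Saa1, while the other 9 replicated arrays ran from 170.2 to 343.2 and from 586.4 to 1266.2. Saa2 passed the yardstick and Saa1, with a replicate difference of 2.79, did not. The KO pool and WT day 2 replicate 2 are the 2 arrays with high serum amyloid. Of 23 acute phase genes the KO pool was below WT in 4 (17.4%, beside 50.8% of all genes), with a median of 0.20.

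Irs2 and Igfbp1, both repressed by insulin in liver, were past the yardstick in the higher direction. Irs2, an adaptor of the insulin receptor, read 134.0 and 419.6 (1.54), where the WT pool was the lowest of 12 arrays. Igfbp1, a binding protein of insulin-like growth factors, read 577.8 and 1297.5 (1.15, largest replicate difference 1.09), and again the WT pool was the lowest of 12 arrays. At day 0 it had read 18267.9 and 8792.6 in KO and 1188.4 and 2554.9 in WT. That difference at day 0 was called by limma (2.85, adjusted p = 0.0196, but 0.0910 without WT day 0 replicate 1). The list of 19 genes of insulin, IGF and growth hormone signalling had a median of -0.01. It held 2 genes past the yardstick in the higher direction, where 2.12% of all genes were.

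Nr0b2, the bile acid-induced repressor SHP, read 1137.7 and 543.6 units (-1.04), and the KO pool was the lowest of 12 arrays. Lgr5, a Wnt pathway receptor of hepatocytes around the central vein, read 935.9 and 316.7 (-1.52), again with the KO pool lowest, although its dim second probe set gave 0.26. Other genes of the pericentral zone lay close, such as Glul, glutamine synthetase, picked after its values were seen (9091.8 and 8128.2), and the list of 18 had a median of -0.07. Hspb1, a small heat shock protein, read 3807.2 and 7724.3 (1.02) and was highest of all arrays in the KO pool, while Hspa1a, the inducible heat shock protein, read 287.7 and 144.6 (-0.92). Its order turned at day 2, where limma called it higher in KO (23.2 to 60.6 units in WT and 377.6 to 458.7 in KO, 3.15 ± 0.58, adjusted p = 0.00894, or 0.0545 without KO day 2 replicate 2).

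Fatty acid synthesis genes lay a little lower without any passing the yardstick, where 5.03% of all genes passed it. The KO pool was below the WT pool in 23 of 28 (82.1%, beside 50.8% of all genes), with a median of -0.20. Acss2, which makes acetyl-CoA from acetate, read 8564.2 and 4989.7 (-0.78), within its replicate difference of 0.94, and Acacb, an acetyl-CoA carboxylase, 818.3 and 398.0 (-1.01), within 3.31. At day 2 limma called 2 of these 28 genes higher and 1 lower, beside 3.99% and 5.23% of all genes.

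Interferon-stimulated genes went both ways, with 2 of 23 past the yardstick in the lower direction and 1 in the higher, beside 2.91% and 2.12% of all genes. The antiviral enzymes Oas1a (1530.8 and 686.5) and Oas2 (680.3 and 298.9) were lower in the KO pool by 1.14 each, and the GTPase Gbp2 (84.8 and 218.4) higher by 1.22. The Oas1a values lie inside the range of the replicated arrays (282.2 to 1532.5), and both Gbp2 values lie below it (262.7 to 447.2). The list of 23 had a median of 0.01.

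Markers of other liver cells were read next to these groups. The summed signal of 8 neutrophil and monocyte markers was 5708.7 units in the WT pool and 4095.9 in the KO pool, just below the 10 replicated arrays (4129.1 to 6293.4), and 7 of the 8 were lower, with none under 64 units. The chemokine receptors Ccr2 of monocytes (567.5 and 103.1, -2.29) and Cxcr2 of neutrophils (354.3 and 96.9, -1.71) were past the yardstick with the KO pool lowest of all arrays, while Lyz2, lysozyme, picked after its values were seen, read 1848.5 and 1674.5. Of 4 measured bile duct markers, Tff3 (739.8 and 99.8, -2.71) was past the yardstick and Epcam (1581.9 and 677.6) was not. The sum of the 4 was 6422.5 and 4670.2, between 1805.8 and 8400.5 on the other arrays. Past the yardstick in the lower direction were thus 2 of 8 and 1 of 4 markers, beside 2.91% of all genes. Dim genes passed it more often, 9.56% of those with a mean log2 signal of 9 or less, counting both directions.

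The sums of Kupffer cell (20038.5 and 18633.1), endothelial (13961.2 and 14279.3), stellate cell (16023.2 and 17304.8) and erythroid markers (1679.5 and 2058.1) stayed within the range of the replicated arrays. The sum of 10 lymphocyte markers was 6289.1 and 5814.3, the latter below the 5953.5 to 8487.8 of those arrays. Part of that sum is Ccl5, a T cell chemokine, at 525.2 and 141.3. Its difference of -1.78 lay within its largest replicate difference of 2.02, and no marker of this list was past the yardstick. Lyve1, an endothelial marker, read 243.4 and 551.7 (1.13). The part of these cells in the difference of the mitotic genes was not tested.

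**Figure D5:**
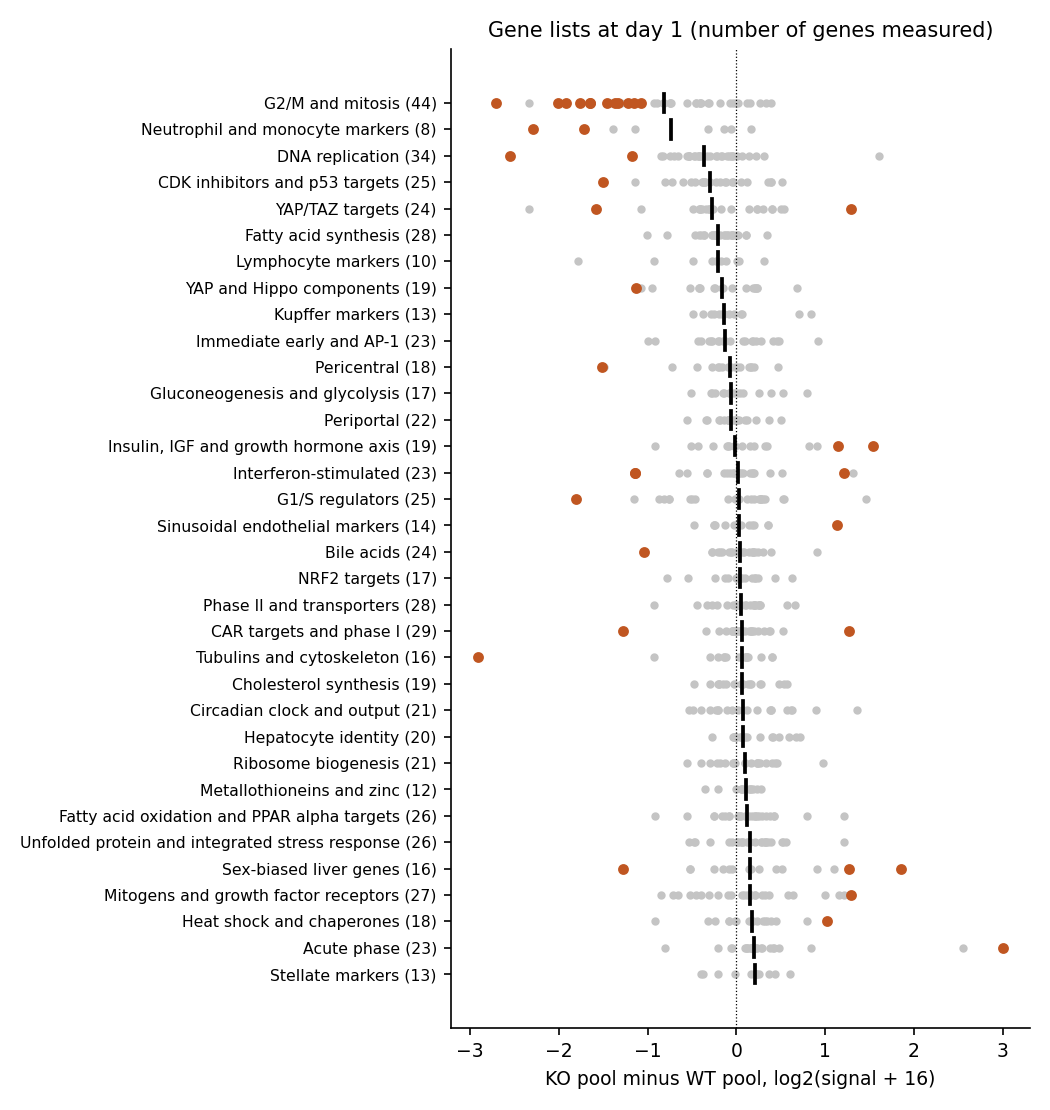
Difference between the pools (KO minus WT, log2) for the members of the gene lists with at least 8 measured genes; grey points are genes within the yardstick, orange points genes past it, black bars list medians and the dotted line the median of all genes (-0.01). The G2/M and mitosis list lies lowest, with 12 orange points and a median of -0.82, while most lists are centred near 0.

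Of 37 lists, 18 had no member past the yardstick, 30 had a median within 0.25 of 0, and 3 had a median beyond 0.5, namely G2/M and mitosis, neutrophil and monocyte markers (-0.73) and bile duct markers (-0.66, 4 genes). The lists hold 692 measured genes, of which 9 were past the yardstick in the higher direction (1.3%, beside 2.12% of all genes) and 27 in the lower (3.9%, beside 2.91%), 12 of them from the G2/M list.

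The largest single differences often rested on 1 array. Mmp7, a metalloproteinase, read 1534.0 units in WT and 104.2 in KO (-3.69), but KO day 2 replicate 2 read 1028.8 and the other replicated arrays 92.2 to 589.4. Khsrp, a splicing and RNA decay factor, read 1154.3 and 123.1 (-3.07), while another probe set gave -0.66 and a further, dim one read 24.1 and 120.5. Dmbt1, a mucosal glycoprotein, read 1059.3 and 144.8 (-2.74), beside 16.7 to 335.4 elsewhere. In the other direction, Sirt6, a deacetylase, read 104.6 and 820.5 (2.79), and Recql4, a DNA helicase, 91.8 and 629.0 (2.58), and for both the WT pool was the lowest of 12 arrays. Unc5c, a netrin receptor, read 184.0 and 1036.3 (2.40), again with the WT pool lowest, and its second probe set 194.5 and 340.7 (0.76). Of the genes in this paragraph it was the one that limma also called at day 2 (469.0 to 721.6 in WT and 1038.4 to 1137.1 in KO, 0.97 ± 0.17, adjusted p = 0.00803 by limma).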

How the data were processed

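RNA of 12 mouse liver samples was measured on Affymetrix arrays. The authors deposited intensities from MAS5 (named in the submitters' processing notes, version not given in the sources used here). The mean between the 2nd and 98th percentile is near 500 on all arrays, as after scaling to one target. Arrays have no read depth, and their number limits the precision. Intensities plus 16 were put on a log2 scale with no further normalization. Of 45101 probe sets, 34945 name 1 gene in the platform annotation and were used, 932 name several, 9160 none and 64 are controls. Probe sets above the median of their array on fewer than 2 arrays were dropped, and the brightest of those left stands for its gene. KO was tested against WT at day 2 and at day 0 in limma 3.58.1 under R 4.3.3 (6 group means, 12 arrays, trend and robust, two-sided), tested on simulated data. The other steps ran in Python 3.11.15, with matplotlib 3.10.9 for figures, numpy 2.4.6 and pandas 2.3.3. Alternatives covered scaling, pseudocount, filter, probe set choice, threshold, left-out replicates and the fit.

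Genes were named by a rule: a panel of 16 genes around YAP, CAR and the cell cycle, the 20 largest differences each way past the yardstick with both pools at 64 units or more, the 5 largest each way without that floor, and up to 6 members of each list past the yardstick, or the 2 furthest apart where fewer than 2 were. The text gives a subset. The comparison, the members and the 37 lists were chosen with earlier results of these data known. Same-numbered replicates did not deviate together (correlations from -0.01 to 0.03), so the numbers pair no samples.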

Additional observations from a re-analysis of the deposited data

How the results depend on the processing

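The counts at day 1 moved most with the threshold: 570 higher and 745 lower at 1.5-fold, 158 and 215 at 3-fold, 130 and 181 at 3 pooled SDs, 575 and 720 at 2-fold alone, and 514 and 682 without the filter on dim probe sets. Under the other alternatives (quantile, median or cyclic loess scaling, other pseudocounts, a stricter filter, averaged probe sets, replicates of 1 day as yardstick, a floor of 64 units) they stayed within 1.5 times. Leaving out a replicate from the yardstick gave 312 to 348 higher and 423 to 471 lower.

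At day 2, median centring gave 233 higher and 1366 lower, eBayes without trend and robust 338 and 410, and leaving out an array 107 to 447 and 301 to 532, with the lowest counts without KO day 2 replicate 2. Leaving out WT day 2 replicate 2 was the one such omission that kept both counts within 1.5 times. At day 0, no filter gave 3 higher and 6 lower, eBayes without trend and robust and the fit of the day 0 arrays alone 0 and 0 in limma (with all arrays and trend it was 9 and 15, and 1151 genes had an unadjusted p under 0.05), and leaving out an array 6 to 27 and 1 to 107. The count of lower genes at day 0 moved past 1.5 times without any of the 4 arrays. With the replicate number as a block the counts were 484 higher and 653 lower at day 2 and 2 and 6 at day 0; the numbers do not pair the samples. Under other scalings, pseudocounts and averaged probe sets, 748 values of named genes moved by less than the replicate SD and 50 by more, none with a change of sign in a called value. The alternatives for the 2 cell cycle lists were chosen after seeing the data. The day 1 difference rests on 1 array per genotype, and most genes past the yardstick are dim, so single genes carry less weight than the values of brighter ones.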
